A study of Mus musculus with 20 samples.

Results

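Cathepsins and Creg1 were followed in mouse ovarian surface epithelial (OSE) cells, which line the surface of the ovary as a sheet 1 cell thick. The genes were chosen by name, as 9 cathepsins (Ctsa, Ctsb, Ctsc, Ctsd, Ctsf, Ctsh, Ctsk, Ctsl and Ctsz) and Creg1. Earlier results of these data were known when the genes were chosen. Of these 10 genes, 8 were among the 14299 genes of the count table, and Ctsc and Ctsk were not analysed here. Primary OSE cultures spent 48 hours without hormone and were then given 100 nM of the estrogen estradiol (E2), or only its vehicle, ethanol at 0.0002%, for 15 days. Single cells were captured on 1 chip with a 3′ RNA protocol, with 1 library per chip column. The tables hold 329 control cells from columns 1 to 10 and 260 E2 cells from columns 11 to 20, with no cell from column 13. Each condition is taken here to have been loaded as 1 suspension through 1 inlet, which the sample titles do not state. E2 and suspension therefore cannot be told apart, and p-values measure the spread between libraries of a suspension. The 2 clusters are those deposited by the authors. Cluster 1 held 126 control and 42 E2 cells, and the other cluster, called responsive in the study, held 203 control and 218 E2 cells.

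Cathepsins are proteases of the lysosome, the acidic compartment in which cells degrade proteins, lipids and sugars. Most are made as inactive precursors that are carried from the Golgi to the lysosome by mannose 6-phosphate receptors and matured there by cleavage, and a part is secreted. CTSB, CTSC, CTSF, CTSH, CTSK, CTSL and CTSZ are cysteine proteases, CTSD is an aspartic protease, and CTSA is a serine carboxypeptidase that also protects other lysosomal enzymes. CREG1 is a small glycoprotein that is found in lysosomes and is also secreted. Many lysosomal genes carry, near their start, an E-box that the transcription factor TFEB binds.

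Promoter windows of 300 bases, from 250 before to 50 after an annotated start, are shown for the members that were higher with E2 or that carry the 8-base TFEB motif TCACGTGA. Capitals mark the E-box CACGTG, which reads the same on both strands. Sequences are from RefSeq (GRCm38.p6), where 8 of the 10 genes had a window, and Ctsb and Ctsh had none. The Creg1 window lies at chr1:165763508-165763807 on the plus strand, the Ctsl window at chr13:64370471-64370770 on the minus strand, the Ctsd window at chr7:142387778-142388077 on the minus strand, and that of the second of 2 Ctsa starts at chr2:164833523-164833822 on the plus strand. The Ctsl window and this Ctsa window lie wholly inside the gene spans used for gene positions here (chr13:64359337-64370890 and chr2:164832873-164841032). Their starts are therefore not the outer ends of those spans.
Creg1: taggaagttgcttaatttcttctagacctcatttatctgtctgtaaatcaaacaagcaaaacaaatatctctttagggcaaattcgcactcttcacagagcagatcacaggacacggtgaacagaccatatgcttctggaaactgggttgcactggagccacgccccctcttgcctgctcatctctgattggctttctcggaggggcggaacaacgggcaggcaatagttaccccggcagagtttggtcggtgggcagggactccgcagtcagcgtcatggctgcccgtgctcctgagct
Ctsl: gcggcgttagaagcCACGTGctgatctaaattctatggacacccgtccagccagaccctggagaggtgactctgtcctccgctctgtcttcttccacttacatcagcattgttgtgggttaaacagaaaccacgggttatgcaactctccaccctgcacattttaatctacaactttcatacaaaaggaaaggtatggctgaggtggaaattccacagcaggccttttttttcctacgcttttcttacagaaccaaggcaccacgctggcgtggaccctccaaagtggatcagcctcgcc
Ctsd: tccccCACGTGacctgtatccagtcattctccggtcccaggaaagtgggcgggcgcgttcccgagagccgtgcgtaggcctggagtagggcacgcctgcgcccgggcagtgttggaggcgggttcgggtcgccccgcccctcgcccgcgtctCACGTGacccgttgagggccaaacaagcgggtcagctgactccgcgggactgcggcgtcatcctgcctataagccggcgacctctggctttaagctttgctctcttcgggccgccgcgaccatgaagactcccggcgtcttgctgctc
Ctsa: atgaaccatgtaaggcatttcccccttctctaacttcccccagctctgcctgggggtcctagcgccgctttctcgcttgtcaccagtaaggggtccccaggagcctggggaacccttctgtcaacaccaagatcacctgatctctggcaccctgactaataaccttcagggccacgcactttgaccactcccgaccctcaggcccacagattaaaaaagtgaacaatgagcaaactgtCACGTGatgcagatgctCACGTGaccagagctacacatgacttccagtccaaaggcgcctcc
TCACGTGA, searched on both strands, is found in 0.974% of 32851 such windows. Among the members it is in the window of the second Ctsa start and in that of Ctsd. In this Ctsa window it begins 13 bases before and again 4 bases after the start, and in Ctsd 99 bases before it. The core CACGTG, found in 7.15% of all windows, also stands 236 bases before the Ctsl start and 79 bases before the Ctsf start. The windows of Creg1, Ctsz, Ctsc and Ctsk and that of the first Ctsa start do not contain it. The palindromic estrogen response element, searched on both strands with any 3 bases between its arms and found in 0.0700% of all windows, is in none of the members' windows.

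Counts were summed over the cells of each library and cluster with at least 3 cells, which gave 10 control and 9 E2 sums of responsive cells (15 to 30 cells and 2136833 to 3903973 reads each). Cluster 1 gave 10 control sums of 8 to 18 cells (712140 to 2223981 reads) and 7 E2 sums of 3 to 9 cells (233982 to 771449 reads). Median reads per cell were 143198 in responsive control, 117794.5 in responsive E2, 112105 in cluster 1 control and 87620 in cluster 1 E2 cells. Mitochondrial reads took a median of 2.08%, 2.43%, 2.53% and 3.55% in the same order. Levels are given as CPM, counts scaled to the TMM-normalized total of a sum. Calls required both an adjusted p under 0.05 and a log2 fold change beyond 0.5 in either direction. Of the OSE markers (Krt7, Krt8, Krt18, Krt19, Upk3b, Msln and Wt1) all 7 were in the table. Their sum was 3052 to 5413 CPM in responsive cells and 3768 to 6339 CPM in cluster 1. Single markers differed, with 2 of the 7 higher and 2 lower in cluster 1 by more than 0.5 on the log2 scale. Krt19 belonged to 20 transcripts whose control level in cluster 1 was 4.11 to 8.88% of that in responsive cells. Of 10 leukocyte markers 4 were in the table (Ptprc, Cd68, Csf1r and Itgam), at a summed 0 to 140 CPM. Adgre1, Lyz2, Fcer1g, Tyrobp, Cd52 and Laptm5 were not. Pecam1, the 1 endothelial marker of 5 in the table, was at 443 to 754 CPM in responsive cells and 313 to 663 CPM in cluster 1. The E2-induced gene Greb1 was at a median of 36.9 CPM in the E2 libraries of responsive cells and at no more than 0.343 CPM in the control libraries.

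The E2 library of column 15 stood apart from the others. In responsive cells its log2 levels had a Pearson correlation across 6909 genes of 0.715 with the median of the other E2 libraries, where the remaining 8 had 0.848 to 0.906. It was the highest E2 library for 29.6% and the lowest for 25.4% of these genes, against 6.90 to 11.2% and 7.48 to 13.8% for the others. Its 3 cluster 1 cells gave a correlation of 0.496, where the other E2 libraries of cluster 1 had 0.598 to 0.654. The cause was not tested. Most log2 fold changes, shares of cells, states and marker sums of the E2 libraries are given with and without it below, and the rest with it only. The marker sums above include it, and without it the lowest OSE sum of responsive cells was 4222 CPM.

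Ctsh, Creg1 and Ctsl were higher with E2 in responsive cells, by 4.99-fold, 2.62-fold and 1.86-fold. The other 5 members (Ctsa, Ctsb, Ctsd, Ctsf and Ctsz) were not called. In this comparison 1.37% of 10265 genes tested were called, and 0.848%, or 87 genes, were called higher with E2. The share of 3 of 8 members is not an independent comparison with these. The members were chosen with earlier results of these data known, and the study names Ctsh among the top genes of its E2 branch. The 3 were called in each of 7 alternative analyses and with each of the 19 libraries left out. Of the 7, the setting of at least 5 cells per sum left the responsive sums unchanged and could not give another result.

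Ctsh (chr9:90054152-90076089, GRCm38) encodes cathepsin H, a cysteine protease that mainly removes residues from the amino terminus of its substrates. In responsive cells its level ran from 64.5 to 164 CPM (median 105) in 10 control libraries and from 443 to 693 CPM (median 477) in 9 E2 libraries. Every E2 library was above every control library, a separation upward that 0.273% of the genes tested showed. The log2 fold change was 2.32 (SE 0.17, edgeR, adjusted p = 7.58e-10), or 2.35 without column 15.

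A read of Ctsh was found in 67.7% ± 14.6 of responsive control cells (SD, n = 10 libraries) and in 92.2% ± 5.43 of responsive E2 cells (SD, n = 9). Control cells had more reads, and with each cell thinned to 20000 reads the shares were 52.1% ± 11.6 and 88.6% ± 5.36. Without column 15 the share with E2 was 93.3% ± 4.60 with all reads and 89.3% ± 5.31 at 20000 reads. The share was thus higher with E2 at equal depth, and the median cell held 44 Ctsh reads with E2 (quartiles 16 and 82) and 6 in control (quartiles 0 and 23.5). The change was therefore present both in how many cells had a read and in the reads per cell.

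Creg1 (chr1:165763746-165775308) encodes a secreted and lysosomal glycoprotein. It lay between 532 and 878 CPM (median 707) in the control libraries of responsive cells and between 1422 and 2230 CPM (median 1884) in the E2 libraries. The ranges did not overlap, and the log2 fold change was 1.39 (SE 0.11, edgeR, adjusted p = 5.34e-09) with all libraries and 1.39 without column 15. Reads were found in 97.6% ± 3.31 of control and 99.1% ± 1.80 of E2 cells, so nearly every responsive cell had one in either condition. The median cell held 85 reads in control and 183.5 with E2.

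Ctsl (chr13:64359337-64370890) encodes cathepsin L, a cysteine endopeptidase. Its control libraries lay between 372 and 546 CPM (median 400), and its E2 libraries between 566 and 1654 CPM (median 697), with no overlap. Column 15 was the highest, and the next E2 library was at 830 CPM. The log2 fold change was 0.90 (SE 0.16, edgeR, adjusted p = 0.00147), and without column 15 it was 0.69 (SE 0.10, adjusted p = 5.77e-05). In column 15 the Ctsl reads were spread over the cells, since the cell with most held 10.5% of 5097 reads. The highest control library, from column 7, was at 546 CPM, and 1 of its 18 cells held 48.8% of its Ctsl reads.

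**Figure D1:**
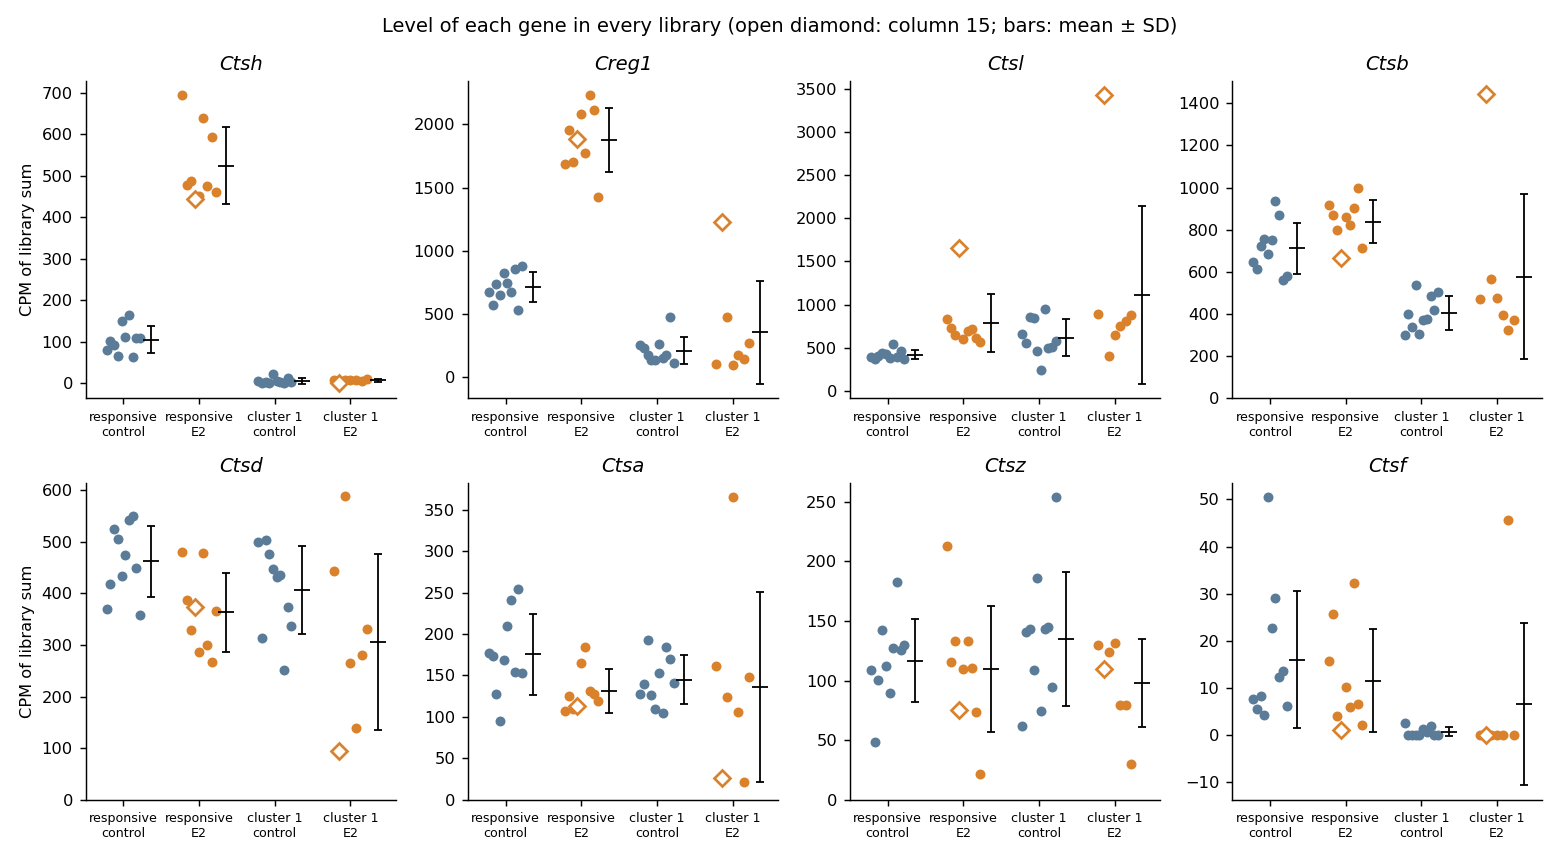
Level of the 8 members in every library sum (CPM, linear axes that differ between panels), for responsive and cluster 1 cells of control (blue) and E2 (orange). Each point is 1 library, the open diamond is column 15, and bars give mean ± SD. Ctsh, Creg1 and Ctsl separate by treatment in responsive cells, while in cluster 1 column 15 is the highest E2 library for Ctsl, Creg1 and Ctsb.

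The other cysteine cathepsins did not pass the test. Ctsb, which encodes cathepsin B, a protease with both endopeptidase and carboxypeptidase activity, was at 560 to 936 CPM (median 704) in control and at 664 to 996 CPM (median 862) with E2. The ranges overlapped in part, with 4 of 10 control libraries below every E2 library, 1 E2 library above every control library and 8 of 9 E2 libraries above the control median. The log2 fold change was 0.23 (SE 0.12, edgeR adjusted p = 0.545), or 0.27 (adjusted p = 0.266) without column 15. Ctsz, which encodes the carboxypeptidase cathepsin Z, was at 48.8 to 182 CPM (median 119) in control and 21.9 to 213 CPM (median 111) with E2, a log2 fold change of -0.10 (SE 0.27, edgeR adjusted p = 0.961), or -0.04 without column 15. Ctsf, encoding cathepsin F, was close to the detection limit, at 4.11 to 50.5 CPM (median 10.2) in control and 0.974 to 32.3 CPM (median 6.56) with E2. It was found in 31 of 203 control and 25 of 218 E2 cells, and its log2 fold change of -0.47 had an SE of 0.62 (edgeR adjusted p = 0.904) and was -0.31 without column 15.

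The aspartic protease gene Ctsd and the serine protease gene Ctsa, both with TCACGTGA in the windows shown above, were not called. Ctsd was at 358 to 550 CPM (median 462) in control and 267 to 481 CPM (median 366) with E2. Of the 9 E2 libraries, 4 were below the lowest control library, and the log2 fold change of -0.36 (SE 0.13) did not pass the test (edgeR adjusted p = 0.317). Ctsa was at 95.7 to 255 CPM (median 171) in control and 107 to 184 CPM (median 126) with E2, and 8 of 9 E2 libraries were below the control median (log2 fold change -0.42, SE 0.17, edgeR adjusted p = 0.375). Without column 15 the values were -0.36 for Ctsd and -0.40 for Ctsa.

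Shares of responsive cells with a read were lower with E2 for Ctsa, Ctsz, Ctsd, Ctsb and Ctsf, as means that were not tested. With all reads, responsive E2 cells had a median of 4131.5 genes per cell and responsive control cells 4531. Shares over all genes were not computed, so the lower shares are not read as particular to these members. Ctsa was found in 80.4% ± 7.77 of responsive control cells and 66.3% ± 12.2 of responsive E2 cells, or 65.8% ± 10.5 and 52.3% ± 12.7 at 20000 reads per cell. Without column 15 the E2 values were 67.3% and 54.2%. Ctsz was found in 77.0% ± 8.30 and 59.3% ± 15.8, or 58.0% ± 10.1 and 45.7% ± 16.8 at equal depth, with E2 values of 61.4% and 47.7% without column 15. Ctsb and Ctsd were found in a mean of at least 95.2% of responsive cells of either condition with all reads. At 20000 reads per cell Ctsd was found in 91.6% ± 6.26 of control and 84.0% ± 8.60 of E2 cells. Ctsb was found in 98.9% ± 2.45 of control and 92.5% ± 5.23 of E2 cells at that depth, an order opposite to that of its summed levels. Without column 15 these E2 values were 84.6% for Ctsd and 93.7% for Ctsb. Ctsf was found in 15.5% ± 8.70 of control and 11.6% ± 5.81 of E2 cells, or 12.5% ± 8.31 and 6.34% ± 4.79 at equal depth. Its E2 values were 12.5% and 7.14% without column 15.

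**Figure D2:**
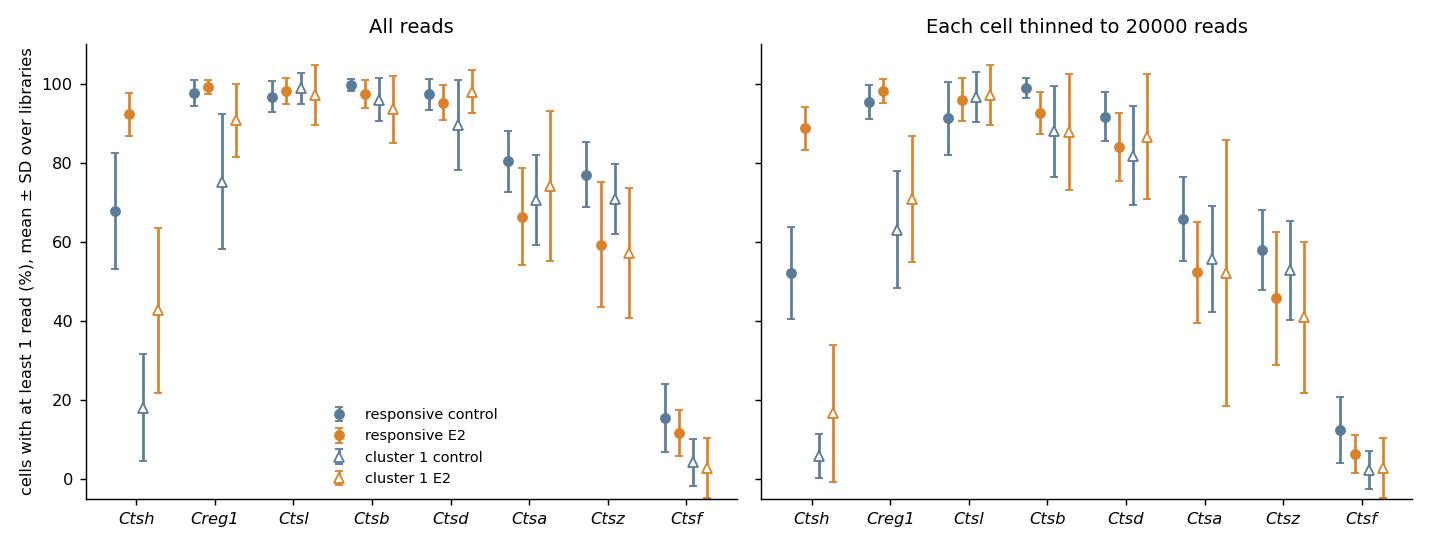
Percent of cells with at least 1 read of each member, with all reads (left) and with each cell thinned to 20000 reads (right). Points are means and bars SD over libraries, filled circles are responsive cells, open triangles are cluster 1, blue is control and orange is E2. For Ctsh in responsive cells the share is 67.7% in control and 92.2% with E2, and at equal depth 52.1% and 88.6%.

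In cluster 1 no member was called for E2 against control. Only 0.0839% of 8340 genes tested were called by edgeR there, 622 genes had an unadjusted p below 0.05, and DESeq2 called 52 genes and no member. Of the 8 members, 6 were tested, 2 of them (Ctsb and Ctsl) with an unadjusted p below 0.05, and Ctsh and Ctsf had too few reads to pass the filter. With no filter on genes, their log2 fold changes were 0.29 for Ctsh (edgeR adjusted p = 0.963) and 3.18 for Ctsf (adjusted p = 0.367).

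Ctsl in cluster 1 was at 241 to 945 CPM (median 565) in 10 control libraries and at 403 to 3423 CPM (median 814) in 7 E2 libraries. The highest value came from the 3 cells of column 15, and the other 6 E2 libraries, at 403 to 886 CPM, lay inside the control range. The log2 fold change of 0.89 (SE 0.33, edgeR adjusted p = 0.474) fell to 0.29 (SE 0.23) without column 15. The log2 fold changes of Creg1 and Ctsb also fell without column 15.

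Creg1 was at 107 to 476 CPM (median 172) in control and at 93.8 to 1229 CPM (median 174) with E2, a log2 fold change of 0.79 (SE 0.44, edgeR adjusted p = 0.762) that fell to 0.04 (SE 0.36) without column 15. In column 15, 1 of its 3 cells held 86.4% of the Creg1 reads. Ctsb was at 301 to 537 CPM in control and 324 to 1443 CPM with E2, a log2 fold change of 0.55 (SE 0.26, edgeR adjusted p = 0.662) with column 15 and 0.15 without it. For these 3 genes the size of the E2 difference in cluster 1 thus came mostly from column 15.

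The other members tested in cluster 1 were Ctsd, at -0.36 (SE 0.29), Ctsz, at -0.42 (SE 0.37), and Ctsa, at -0.03 (SE 0.42). Their edgeR adjusted p-values lay between 0.879 and 0.997, and without column 15 the values were -0.21, -0.45 and 0.14. Ctsh had 94 reads in 126 control cells and 32 in 42 E2 cells, or 0 to 21.4 CPM (median 3.38) and 0 to 10.1 CPM (median 8.68) per library. Column 15 was the E2 library at 0, and the other 6 lay between 5.07 and 10.1 CPM. A single control library, from column 5, held 49 of the 94 reads. Ctsf had 9 reads in the control cells and 27 in the E2 cells, all 27 in 1 cell of column 19. A library with 0 reads allows up to 1.31 to 3.99 CPM in control and 3.88 to 15.6 CPM with E2, taking 3 counts as the limit.

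Whether the E2 effect differed between the clusters was tested with an interaction term, which was called for 0.184% of 11398 genes and for no member. It was -1.95 for Ctsh (SE 0.61, edgeR adjusted p = 0.168, unadjusted p = 0.00253), with adjusted p-values of 0.0871 to 0.726 over the alternatives, and -1.87 (SE 0.60, adjusted p = 0.208) without column 15. For Creg1 it was -0.65 (SE 0.45, edgeR adjusted p = 0.646) and became -1.40 (SE 0.35, adjusted p = 0.0940) without column 15. For Ctsl it was -0.06 (SE 0.38, edgeR adjusted p = 0.987), and -0.45 (SE 0.25) without column 15. The value for Ctsf, 3.79 (SE 1.43, edgeR adjusted p = 0.282), rests on the 27 reads of 1 cell and was 3.82 without column 15. A difference in E2 response between the clusters was therefore not shown for any member.

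**Figure D3:**
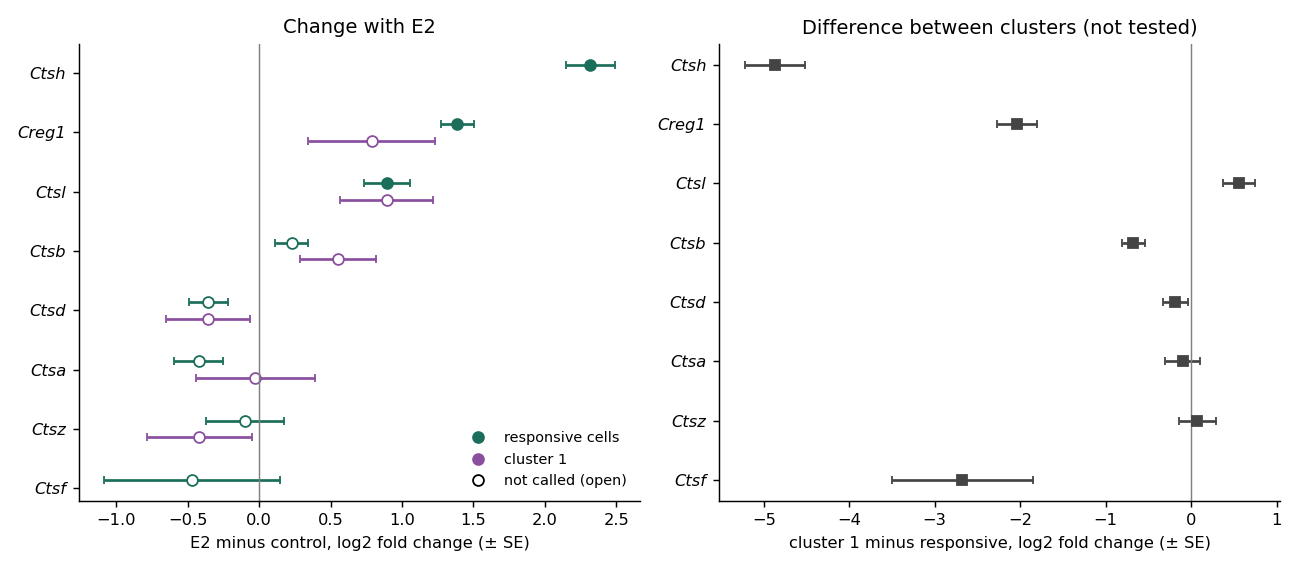
Log2 fold changes of the members with SE. Left, E2 minus control in responsive cells (green) and cluster 1 (purple), with filled points called and open points not called, and with Ctsh and Ctsf removed by the filter in cluster 1. Right, cluster 1 minus responsive cells with no test. Ctsh (2.32), Creg1 (1.39) and Ctsl (0.90) are the called changes, and Ctsh (-4.87), Ctsf (-2.68) and Creg1 (-2.04) are furthest below 0 on the right.

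Between the clusters, Ctsh, Ctsf, Creg1 and Ctsb were at lower levels in cluster 1 and Ctsl was at a higher level. The clusters were made from the expression of the same cells, and these values are given as a description without a test. For scale, 25.9% of 9826 genes were lower and 22.8% higher in cluster 1 by more than 0.5 on the log2 scale, and of the 8 members 4 were below and 1 above that line. Beyond 2 on the log2 scale, 3.37% of genes were lower, and of the 8 members Ctsh, Ctsf and Creg1.

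Ctsh differed by -4.87 (SE 0.35) on the log2 scale and was lower in cluster 1 in each of 17 libraries that had both sums. Without column 15 the difference was -4.80. Its mean cluster 1 level came to 5.56% of the responsive level in control and 1.36% with E2, or 1.56% with E2 without column 15. Reads were found in 16.7% of 126 control and 45.2% of 42 E2 cells of cluster 1, or 5.56% and 21.4% at 20000 reads per cell, at a median of 0 reads per cell in both. These shares were not tested, and their order is not read as a change.

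Creg1 differed by -2.04 (SE 0.24) and was lower in cluster 1 in all 17 libraries, by -2.31 without column 15. Its cluster 1 level was 29.1% of the responsive level in control and 18.9% with E2, or 11.1% with E2 without column 15. Ordered by mean level, Creg1 thus stood at 1873 ± 253 CPM (SD, n = 9) in responsive E2, 712 ± 117 CPM (n = 10) in responsive control, 354 ± 408 CPM (n = 7) in cluster 1 E2 and 207 ± 108 CPM (n = 10) in cluster 1 control. The last 2 overlapped, and without column 15 they were at 208 ± 144 and 207 ± 108 CPM.

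Ctsl had another order, with 1114 ± 1031 CPM (SD, n = 7) in cluster 1 E2, 784 ± 336 CPM (n = 9) in responsive E2, 614 ± 215 CPM (n = 10) in cluster 1 control and 418 ± 53.4 CPM (n = 10) in responsive control. It was higher in cluster 1 in 14 of 17 libraries, by 0.56 (SE 0.19), and by 0.39 (SE 0.12) without column 15. The groups overlapped in their library values, except that responsive E2 and responsive control libraries did not overlap. Ctsb was lower in cluster 1 in 16 of 17 libraries, by -0.68 (SE 0.14), or -0.88 without column 15.

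Ctsf differed by -2.68 (SE 0.83), by -2.80 without column 15 and by -4.92 with the library as a block, at low read numbers throughout, and was lower in 16 of 17 libraries. Its cluster 1 level was 4.03% of the responsive level in control and 56.8% with E2, where it came from the 27 reads of 1 cell. Ctsd (-0.18, SE 0.15), Ctsa (-0.10, SE 0.21) and Ctsz (0.07, SE 0.22) lay close to 0. Summed stromal fibroblast markers (Col1a1, Col1a2, Col3a1, Dcn and Pdgfra) were at 2671 to 10445 CPM in cluster 1 and 1670 to 4653 CPM in responsive cells, or at 2671 to 4576 and 1670 to 2191 CPM without column 15. The sum does not describe each marker, since of these 5 only 2 were higher and 3 lower in cluster 1. Their median log2 fold change was -0.30. The theca markers Cyp11a1 and Star, 2 of 5 listed, were at a summed 74.8 to 599 CPM in cluster 1 (median 197) and 13.5 to 136 CPM in responsive cells (median 38.2), with medians of 210 and 36.5 CPM without column 15. Inha, the 1 granulosa marker of 5 in the table, had medians of 51.4 and 19.2 CPM. The part of these markers in the differences between the clusters was not tested.

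The deposited trajectory divides the cells into states, and E2 cells were spread over several of them. States were made from expression, and levels are given as a description of library sums of at least 3 cells, in plain CPM. Creg1 was at 683 ± 132 CPM (SD, n = 10) in control cells of state 2, at 1181 ± 211 CPM (n = 8) in E2 cells of state 4 and at 2008 ± 306 CPM (n = 9) in E2 cells of state 5. Library values of E2 cells of states 4 and 5 did not overlap for Creg1, at 796 to 1387 CPM and 1535 to 2529 CPM. Without column 15 the means were 1214 and 1995 CPM. The share of all genes with such a separation was not computed, so it is not read as particular to Creg1. State 4 also held 21 control cells, whose 1 library sum had Creg1 at 902 CPM, inside the range of its E2 libraries. State 6, with 21 E2 cells, had Creg1 at 1232 ± 527 CPM (n = 5), or 1393 ± 445 without column 15. Its library values, at 588 to 1981 CPM, overlapped those of both state 4 and state 5.

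For Ctsh the library values of the E2 states overlapped. It was at 115 ± 29.9 CPM (SD, n = 10) in control cells of state 2, 419 ± 160 CPM (n = 8) in E2 cells of state 4 and 518 ± 90.4 CPM (n = 9) in E2 cells of state 5, or at 408 and 533 CPM in the E2 states without column 15. In state 6 it was at 373 ± 168 CPM (n = 5), or 405 CPM without column 15. Ctsl was at 404 ± 75.6, 733 ± 336 and 775 ± 298 CPM in control cells of state 2 and E2 cells of states 4 and 5. Without column 15 the values of states 4 and 5 were 641 ± 230 and 677 ± 64.7 CPM. In state 6 Ctsl was at 618 ± 438 CPM (n = 5). Without column 15 it was at 430 ± 135 CPM there, beside 404 ± 75.6 CPM in control cells of state 2. State 1, which held 148 control and 41 E2 cells, had Ctsh at 17.3 ± 18.5 and 7.96 ± 4.04 CPM, or 9.29 with E2 without column 15.

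**Figure D4:**
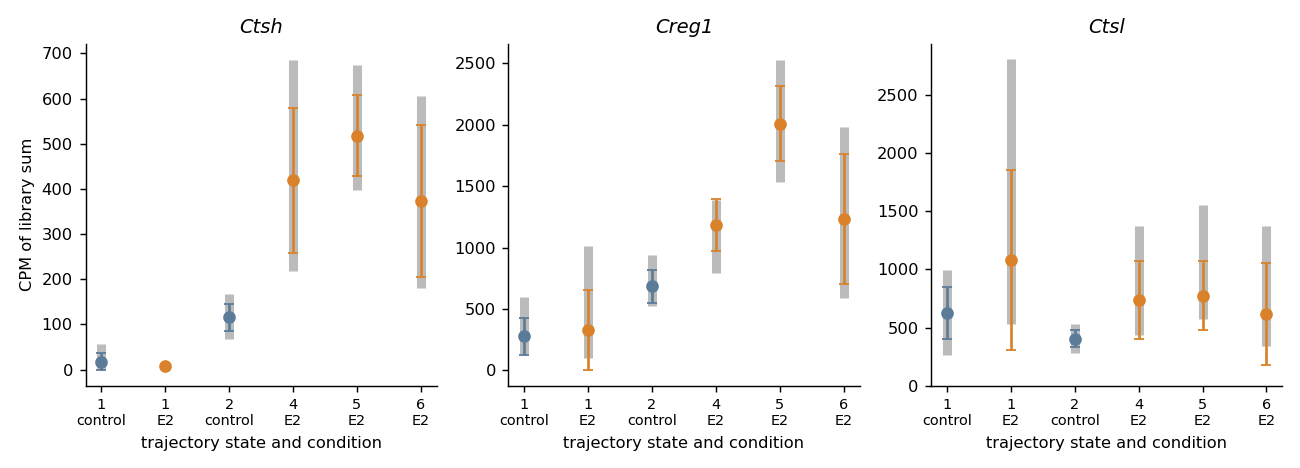
Level of Ctsh, Creg1 and Ctsl (CPM of library sums, linear axes) by trajectory state and condition. Points are means, thin bars SD and grey bars the lowest to highest library. Creg1 is at 1181 CPM in E2 cells of state 4 and 2008 CPM in those of state 5, and its library ranges there do not overlap, while that of state 6 overlaps both. The share of all genes with such a separation was not computed. Those of Ctsh overlap among the E2 states 4, 5 and 6.

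Genes whose log2 levels over all 36 sums were most like those of a member were found among 6909 genes, as a description. These sums share libraries and group differences, so any gene that differs between the same groups gets a high value. For Ctsh they included Lgals1 (Pearson r = 0.94) and Pcp4l1 (0.92), and for Creg1 they were Igfbp5 (0.93), Pcp4l1 (0.92) and Itm2b (0.87). Creg1 was itself the gene most like Ctsb (0.81). For Ctsd and Ctsz the highest values were 0.74 (Etfb) and 0.64 (Abcb8).

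Of the other lysosomal genes, Atp6v1b2 was called higher and Psap and Cd63 lower with E2. The 9 lists of other lysosomal and autophagy genes were drawn up from general knowledge, with earlier results of these data known. They held 126 genes, of which 109 were tested in responsive cells. The 3 called genes are 2.75% of the 109, beside 1.37% of all genes tested, and the median log2 fold change of the 109 was 0.03 beside 0.02 for all genes tested. Without column 15, 1 was called higher and 3 lower.

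The gene called higher was Atp6v1b2, which encodes a subunit of the vacuolar ATPase, the pump that acidifies lysosomes. It was at 166 to 289 CPM in control and 337 to 908 CPM with E2, with no overlap (log2 fold change 1.15, SE 0.16, edgeR adjusted p = 7.52e-05), and column 15 was the highest. Without column 15 it was 0.99. The other 14 vacuolar ATPase genes tested were not called, although Atp6v0e (0.57, edgeR adjusted p = 0.138) was called without the E2 library of column 20. Psap, which encodes prosaposin, the precursor of the saposins that help degrade sphingolipids, was lower with E2. Its libraries lay between 2418 and 5379 CPM in control and between 303 and 1749 CPM with E2, with no overlap (-1.49, SE 0.21, edgeR adjusted p = 1.05e-04). The lowest Psap value was that of column 15, without which the log2 fold change was -1.36. Cd63, a tetraspanin of late endosomes and lysosomes, fell with 8 of 9 E2 libraries below every control library (-0.70, SE 0.12, edgeR adjusted p = 0.00147). The exception was column 15, at 1203 CPM, and without it the log2 fold change was -0.80.

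Other lysosomal genes named here were not called. The sterol carrier gene Npc2 had a log2 fold change of -0.48 (edgeR adjusted p = 0.0448), under the fold threshold, and was called with any of 4 of the 19 libraries left out, column 15 among them. Glb1, the lysosomal beta-galactosidase gene, had a log2 fold change of 0.28 (edgeR adjusted p = 0.826), the membrane protein gene Lamp1 of 0.08 (0.947) and the transcription factor gene Tfeb of 0.37 (0.915). The cathepsin inhibitor genes Cst3 and Cstb had -0.05 and -0.07.

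By list, 0 of 15 glycosidase genes, 0 of 12 sorting genes, 0 of 6 other lysosomal protease genes, 0 of 4 inhibitor genes and 0 of 13 genes of TFEB and its regulators were called by edgeR. At an unadjusted p below 0.05 there were 0, 3, 1, 1 and 0, where 9.89% of all genes tested (1015 of 10265) had such a p, and DESeq2 called none in these lists. With thinned cells edgeR called 1 of 4 other protease genes tested, Lgmn, which encodes the cysteine protease legumain (-0.58, edgeR adjusted p = 0.185 with all reads). The 13 autophagy genes tested had a median log2 fold change of -0.28, with 0 called by edgeR, 6 with an unadjusted p below 0.05 (46.2%, beside the 9.89% of all genes), and 1 (Becn1, at -0.82, edgeR adjusted p = 0.0884) called by DESeq2 and, by edgeR, without the E2 library of column 20.

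**Figure D5:**
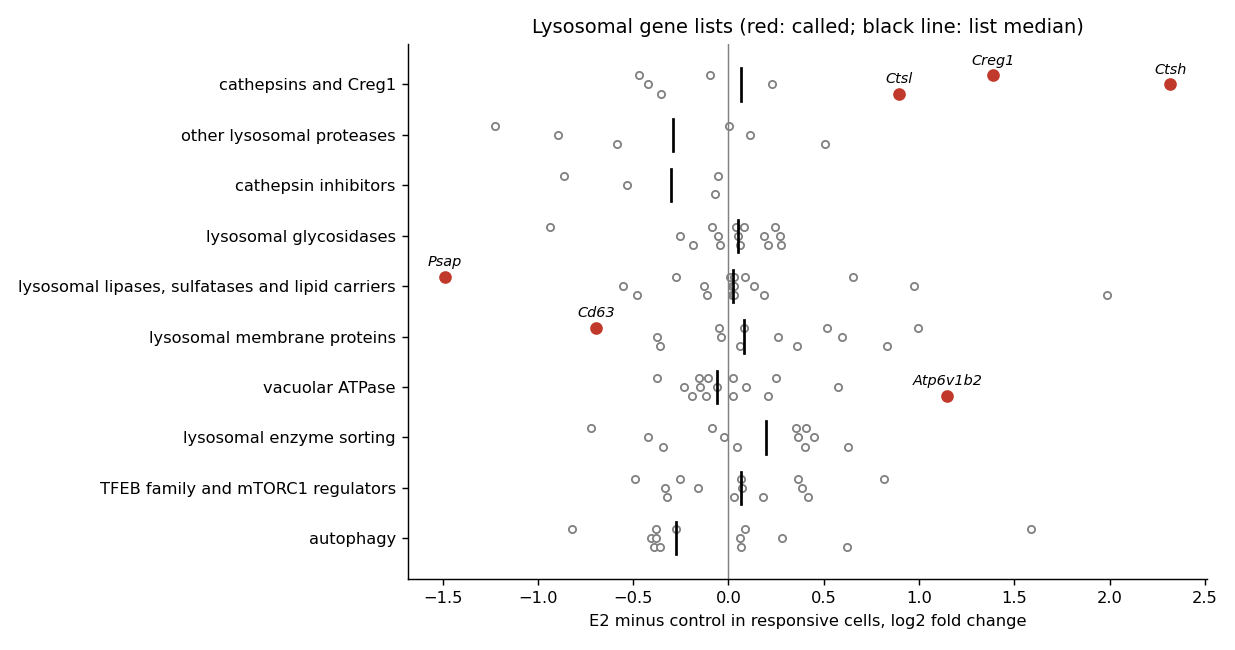
Log2 fold change with E2 in responsive cells for cathepsins and Creg1 and for 9 lists of other lysosomal and autophagy genes. Each point is a gene, red points are called, open points are not, and black lines are list medians. Ctsh, Creg1, Ctsl and Atp6v1b2 are called higher and Psap and Cd63 lower, and the other points lie on both sides of 0.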

How the data were processed

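Control and E2 OSE cells were profiled with the Fluidigm HT protocol. For each cell, the authors deposited estimated counts of genes (kallisto 0.44.0, GRCm38, per the submitters' processing notes), with no molecular identifiers. The counts were summed to genes with tximport and then filtered with scater. kallisto divides reads between transcripts. They also deposited, per cell, the percent of mitochondrial reads, SC3 clusters and monocle states. Their imputed table was not used here. The 589 cell names were not shared between libraries. Counts were rounded, summed per library and cluster (at least 3 cells), and tested with edgeR 4.0.16 in R 4.3.3 (TMM, filterByExpr, quasi-likelihood, Benjamini-Hochberg over all genes tested). The SE was taken from the log2 fold change and its F statistic. The interaction was fitted with condition and cluster, and the clusters were compared with condition as covariate. Intervals and limits for counts cover counting error only. The test was tried on simulated data. Alternatives were DESeq2 1.42.0, limma-voom (limma 3.58.1), RLE factors, no gene filter, thinning to 20000 reads, at least 5 cells per sum, k-means labels without imputation, the library as block, and each library left out. Leaving out column 15 from the interaction, the clusters, the shares, the states and the marker sums was added after seeing the data. All members are named, with genes called in a list and Glb1, Lamp1, Psap and Tfeb, while Npc2, Cst3, Cstb, Becn1, Lgmn and Atp6v0e were chosen after their values were seen. The members and lists were chosen with earlier results of these data known.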

Additional observations from a re-analysis of the deposited data

Results flagged for a closer look

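In 32 groups of 7 to 10 libraries (8 members in 4 groups), 8 had a highest library that lay apart from the others by Dixon's criterion, which chance flags in about 1 of 20 groups. The libraries of a flagged group are the same for all members, so the flags are not independent. Column 15 gave 4 of them, at 1654 CPM for Ctsl in responsive E2 cells, and at 3423 CPM for Ctsl, 1443 CPM for Ctsb and 1229 CPM for Creg1 in cluster 1 E2 cells. In the 3 cluster 1 cells of column 15, 1 cell held 54.9% of the Ctsl reads, 80.1% of the Ctsb reads and 86.4% of the Creg1 reads. The other E2 libraries of cluster 1 were at 730 ± 182 CPM for Ctsl, 433 ± 86.6 CPM for Ctsb and 208 ± 144 CPM for Creg1 (SD, n = 6).

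The remaining 4 were Ctsl at 546 CPM in responsive control cells of column 7, Creg1 at 476 CPM in cluster 1 control cells of column 9, Ctsa at 365 CPM in cluster 1 E2 cells of column 17 and Ctsf at 45.6 CPM in cluster 1 E2 cells of column 19. The share of these reads that came from 1 cell was 48.8%, 65.5%, 41.0% and 100%, in that order. Leaving out column 7 did not change the call of Ctsl in responsive cells.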

How the results depend on the processing

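The calls of Ctsh, Creg1 and Ctsl in responsive cells, and the absence of a call for Ctsa, Ctsb, Ctsd and Ctsz there, held in all 7 alternatives and with each library left out. The alternative of at least 5 cells per sum left the responsive sums unchanged and is no separate check there. Ctsf was not called in the 6 alternatives in which it was tested and was removed by the filter with thinned cells. The log2 fold changes ran from 2.26 to 2.41 for Ctsh, from 1.35 to 1.44 for Creg1 and from 0.69 to 0.95 for Ctsl, with the lowest Ctsl value without column 15. The count of genes called in responsive cells was 141 and became 234 with DESeq2, and it was 107 to 141 with 1 library left out. In cluster 1 the count was 7, and it was 52 with DESeq2, 1 without the filter and 1 to 9 with 1 library left out. For the interaction the count was 21, and it was 98 with DESeq2, 13 with limma-voom, 5 with thinned cells, 19 without column 15 and 0 with the library as a block. No member was called in cluster 1 or for the interaction in any of these. The number of genes that differed between the clusters by more than 0.5 was 4784, and 2378 of 5668 genes with thinned cells. With thinned cells 3 members and not 5 passed that line, since Ctsf was not tested and Ctsl fell short of it. No paired analysis was possible because E2 and control columns share no number, except between clusters of a library. With the library as a block the median of all genes between the clusters moved from -0.02 to -0.34 and the counts to 1348 higher and 4233 lower, with Ctsl at 0.40, Creg1 at -2.32, Ctsh at -5.26 and Ctsf at -4.92. Depth limits cluster 1 with E2 most, where Ctsh and Ctsf did not pass the filter on genes.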
